A study of Mus musculus with 12 samples.

Results

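The caveolins Cav1 and Cav2 and the cavins Cavin1, Cavin2 and Cavin3 are described here across the cell classes of 6 mouse mammary tumours. They are 5 of the 19369 genes in the tables of the Total libraries. They were chosen by their measured levels in the tumour, endothelial and fibroblast classes of these libraries, so those levels are a description and carry no test. The tumours grew from 4T1, a BALB/c mammary carcinoma line used as a model of triple-negative breast cancer, or from 1 of its single-cell-derived clones, E, EM1, EM2, EM3 and M, after injection into the mammary fat pad of female BALB/c mice aged 9 to 11 weeks, whose immune system is intact. The labels name no further allele or drug in any group, and they do not give the clones' epithelial or mesenchymal state. Each clone derives from 1 cell, and each of the 6 groups is 1 tumour with 2 libraries, a Total library of the digested tumour and a CD45 library enriched for leukocytes on magnetic beads, 12 libraries in all. No group has a replicate tumour, so tumours were not tested against each other. Classes of 1 tumour are paired over the 6 tumours; the genes were chosen on the contrasts of tumour, endothelial and fibroblast cells, and no contrast of classes was tested. Every interval below is a 95% interval for counting error only. For levels and ratios the number of captured molecules sets it, and for shares of cells the number of cells. Intervals of levels and ratios do not take in the clustering of molecules within cells. None says anything of the spread between tumours.

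Caveolae are flask-shaped pits of the plasma membrane. Caveolin-1 oligomers, with caveolin-2 joined to them, form the membrane-embedded shell, and the cavins form a coat on its cytoplasmic face. Cavin-1 is needed for the pit to form, while cavin-2 and cavin-3 bind it and are thought to tune the shape and traffic of the pit. Endothelial cells, adipocytes, smooth muscle and fibroblasts are known for abundant caveolae.

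Levels are in CPM, the unique molecular identifiers of a gene (UMIs, each marking 1 captured RNA molecule) in a class, scaled to 1000000 UMIs of that class. Where 1 value per tumour is given, the values follow the order Clone E, EM1, EM2, EM3, M, parental. Because counts per gene also depend on capture, levels are compared for 1 gene between classes and never between genes. The Total libraries held 38499899 to 122055131 UMIs in 6709 to 13467 cells, and the CD45 libraries 28083101 to 57116299 UMIs. The authors' annotation gave 785 tumour cells for Clone E and 1979 to 5979 for the other tumours, but only 37 to 147 endothelial cells and 52 to 259 fibroblasts per tumour. All 10 endothelial markers reached 10 CPM in the endothelial class of all 6 tumours, as did all 10 fibroblast markers in the fibroblast class. The endothelial class of EM2 was highest in the fibroblast list, with a sum of 3826 CPM against a median of 506.0 over the tumours. That of M was highest in the lymphatic endothelial list (451.3 against 144.0) and the platelet list (129.2 against 19.2). That of Clone E was highest in the leukocyte list (1053 against 558.1). The part of these cells in the endothelial levels was not tested. The leading part of the cell barcode, without the suffix that follows it, was compared between libraries. It was the same for 1400 to 1760 cells between a library of Clone E and one of EM3, and for 818 to 1332 between EM1 and EM2. It was the same for 46 to 211 between other pairs of tumours and for 850 to 1732 between both libraries of 1 tumour. The suffix was not compared, so these are not shown to be the same cells.

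Cav2 and Cav1 lie next to each other on chromosome 6 of the mouse genome (build GRCm38.p6), Cav2 at 17281185 to 17289130 and Cav1 at 17306335 to 17341328, with 17204 bases between them. Cavin1 lies on chromosome 11 (100956736 to 100970617), Cavin2 on chromosome 1 (51289126 to 51302960) and Cavin3 on chromosome 7 (105480616 to 105482197). RefSeq promoters were found for 4 of the 5 genes, not for Cavin3. The 250 bases before the outermost start of each are shown because the caveolin pair was high in the same class. Cavin1 and Cavin2 were the cavins whose tumour-cell levels varied least and most between tumours. Capitals mark matches, on either strand, to TGANTCA (AP-1), CCAAT (the CCAAT box), GGGCGG (GC box), GGAATG (TEAD), CACCTG (an E-box), TATAAA (the TATA box) or the CArG box; no 2 matches overlapped.
Cav1, chr6:17306085-17306334, plus strand: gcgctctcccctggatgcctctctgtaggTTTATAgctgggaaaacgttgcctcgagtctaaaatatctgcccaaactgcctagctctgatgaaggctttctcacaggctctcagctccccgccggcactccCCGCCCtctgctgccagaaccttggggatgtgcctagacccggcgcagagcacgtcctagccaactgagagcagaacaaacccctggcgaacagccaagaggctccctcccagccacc
Cav2, chr6:17280935-17281184, plus strand: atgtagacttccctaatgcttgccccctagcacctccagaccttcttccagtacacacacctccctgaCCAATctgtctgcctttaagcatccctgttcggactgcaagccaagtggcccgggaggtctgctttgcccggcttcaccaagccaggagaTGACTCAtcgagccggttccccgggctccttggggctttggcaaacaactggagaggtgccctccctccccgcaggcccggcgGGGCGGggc
Cavin1, chr11:100970618-100970867, minus strand: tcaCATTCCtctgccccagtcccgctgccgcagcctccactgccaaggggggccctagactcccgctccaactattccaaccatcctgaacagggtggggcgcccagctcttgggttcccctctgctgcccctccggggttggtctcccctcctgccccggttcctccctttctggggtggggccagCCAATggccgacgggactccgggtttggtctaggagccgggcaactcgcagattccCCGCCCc
Cavin2, chr1:51288876-51289125, plus strand: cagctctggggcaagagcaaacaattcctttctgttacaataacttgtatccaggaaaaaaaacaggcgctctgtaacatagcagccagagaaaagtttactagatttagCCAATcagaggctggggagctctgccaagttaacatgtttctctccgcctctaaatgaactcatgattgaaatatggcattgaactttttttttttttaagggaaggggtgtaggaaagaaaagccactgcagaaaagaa

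Among the 4 windows, Cav2 alone held an AP-1 match, starting 92 bases before the gene, a motif found in 6.75% of 32851 mouse promoter windows of this length. CCAAT stood in the windows of Cav2, Cavin1 and Cavin2 and in 33.8% of all windows. A GC box stood in those of Cav1, Cav2 and Cavin1 and in 32.7% of all, a TEAD match in that of Cavin1 and in 12.6% of all, and a TATA match, on the opposite strand, in that of Cav1 and in 12.4% of all. None of the 4 held CACCTG (17.2% of all windows) or a CArG box (1.47%). The Cavin2 window was 40.4% G and C, against 59.6% to 67.6% for the others and a median of 52.4% over all windows. A match describes letters in a window, not a bound site.

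Cav1, the structural protein of caveolae, was the gene that separated stroma from tumour cells most. In endothelial cells it was 1379.7, 2347, 2284, 2797, 2499 and 1936 CPM. Tumour cells of the same libraries had 19.8, 32.1, 17.6, 11.0, 13.5 and 13.2 CPM. Every endothelial value thus lay far above every tumour-cell value, and the ratio within a library ran from 69.8 (56.2 to 87.5) in Clone E to 254.1 (222.5 to 290.8) in EM3. Among tumour cells EM1 was highest and EM3 lowest, and the intervals of Clone E and EM2, and of M and the parental tumour, overlapped. Fibroblasts lay between the classes and close together, at 172.6 to 217.1 CPM. Their ratio to tumour cells was 6.76 (5.26 to 8.58) in EM1 at the lowest and 18.7 (15.3 to 22.8) in EM3 at the highest.

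**Figure D1:**
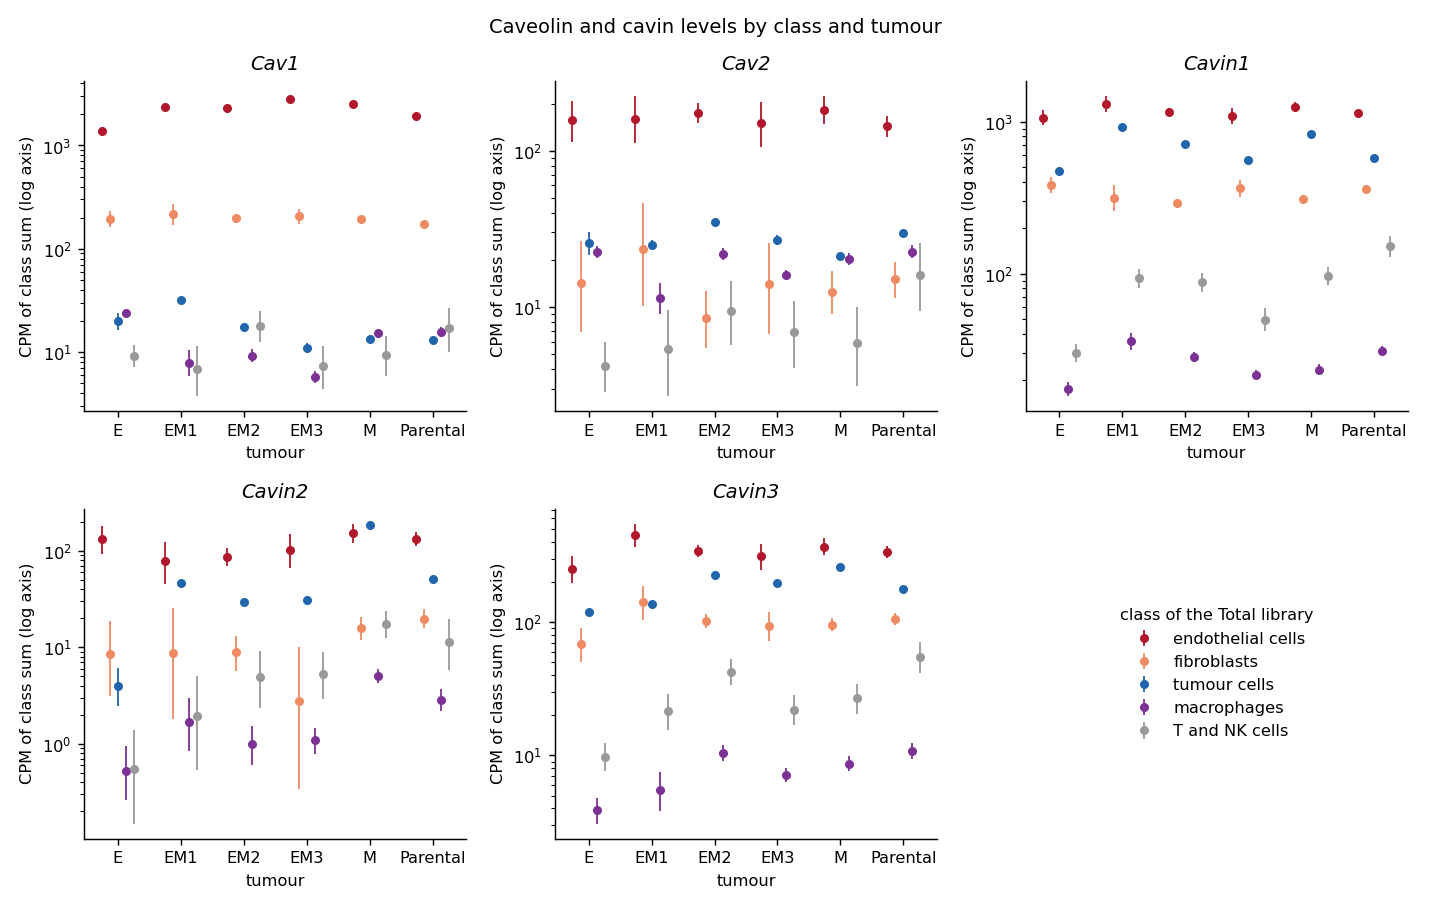
Level of each gene in 5 classes of the Total libraries, 1 panel per gene. The horizontal axis gives the 6 tumours and the vertical axis CPM on a log scale. Points are sums over a class and bars 95% Poisson intervals. Cav1 of tumour cells, at 11.0 to 32.1 CPM, lies far below the endothelial points. Cavin1 of tumour cells, at 475.4 to 924.4 CPM, lies nearer to them, at 44.7% to 70.3% of the endothelial level of the same library.

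T and NK cells, which should lack the gene, had 9.23, 6.84, 17.8, 7.24, 9.42 and 17.0 CPM of Cav1 in the same libraries. Tumour cells were above them in EM1 and Clone E with separate intervals, and in the other 4 tumours the intervals of both classes overlapped, with T and NK cells the higher in EM2 and the parental tumour. With every cell thinned to 2000 UMIs, which leaves out shallower cells, a Cav1 UMI was found in 2.92% (1.82 to 4.43) of tumour cells of Clone E and 1.34% (0.832 to 2.04) of its T and NK cells. The shares were 5.78% (4.94 to 6.71) against 1.62% (0.336 to 4.67) in EM1 and 3.35% (2.76 to 4.01) against 1.55% (0.320 to 4.45) in EM2. In EM3 they were 1.80% against 1.06%, in M 2.39% against 0.952%, and in the parental tumour 2.60% (2.21 to 3.05) against 6.02% (1.98 to 13.5), where only 83 T and NK cells were deep enough. The intervals of tumour cells and of T and NK cells did not overlap in EM1 and overlapped in the other 5 tumours. The parental share lay below its T and NK value and within its interval, so it is not told apart from that of T and NK cells at this depth. These cells are not shown to have the same stray RNA as tumour cells. In the parental tumour Cdh5, an endothelial marker, was 0.877 CPM in tumour cells and 7.55 CPM (3.26 to 14.9), from 8 UMIs, in T and NK cells. Endothelial Cav1 scaled to these Cdh5 levels was 1.13 and 9.71 CPM, beside measured Cav1 of 13.2 and 17.0 CPM. Over all tumours the scaled value was 0.769 to 1.53 CPM in tumour cells and 2.27 to 9.73 CPM in T and NK cells. The part of endothelial RNA in the Cav1 shares was not tested. Without thinning, 7.90% to 20.2% of tumour cells and 0.923% to 2.40% of T and NK cells had a Cav1 UMI, at median depths of 6441 to 15260 and 1098.5 to 2089.5 UMIs per cell.

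Few tumour cells carried several Cav1 molecules. Between 0.0505% of them in EM3 and 0.510% in Clone E held 5 or more UMIs. In Clone E, the 1% of cells with most Cav1 held 42.3% of all Cav1 UMIs of its tumour cells, against 15.6% to 23.4% in the other tumours.

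Cav2, which joins caveolin-1 in the membrane shell, was also highest in endothelial cells, at 156.3, 160.4, 175.0, 149.9, 183.2 and 143.8 CPM. Tumour cells had 25.7, 24.9, 34.8, 26.8, 21.2 and 29.7 CPM, a narrow range that no endothelial value met. The ratio of endothelial to tumour cells was 4.85 (4.11 to 5.68) to 8.65 (6.95 to 10.7). Fibroblasts were low, at 8.54 to 23.5 CPM, each from no more than 58 UMIs. At equal depth a Cav2 UMI was in 2.78% to 6.03% of tumour cells and in 0.238% to 2.41% of T and NK cells. Macrophages had 2.29% to 5.07%, a range that overlapped that of tumour cells, and in Clone E their share of 5.07% (4.32 to 5.90) lay above the 2.78% (1.71 to 4.26) of tumour cells.

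Cavin1, the cavin needed for caveolae to form, showed another pattern. Its endothelial level was 1064, 1316, 1159, 1089, 1248 and 1135 CPM. In tumour cells it was 475.4, 924.4, 709.3, 560.6, 832.2 and 581.1 CPM, an order from EM1 down to Clone E in which no 2 intervals overlapped. Tumour cells thus held 44.7% to 70.3% of the endothelial level of Cavin1 in the same library, where they held 0.394% to 1.43% of that of Cav1. Fibroblasts, at 290.3 to 382.3 CPM, were below tumour cells in all 6 tumours on this scale, and in 5 of them, all but Clone E, with median-of-ratios scaling. The order in Clone E also turned when cells with a barcode shared with another tumour were left out. At equal depth 51.5% (Clone E) to 78.8% (EM1) of tumour cells and 4.73% to 16.9% of T and NK cells had a Cavin1 UMI.

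Cavin3, which binds cavin-1 and has been studied as a protein kinase C delta binding protein, resembled Cavin1. Endothelial cells had 251.5, 449.2, 343.5, 311.7, 368.3 and 337.5 CPM. Tumour cells had 118.4, 135.8, 227.2, 197.8, 259.9 and 178.3 CPM, or 30.2% to 70.6% of the endothelial level. M was highest and Clone E lowest, and no 2 of the 6 tumour-cell intervals overlapped. Fibroblasts had 68.7 to 140.8 CPM. The highest fibroblast value, that of EM1, was level with its tumour cells, with a ratio of 1.04 (0.763 to 1.38).

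**Figure D2:**
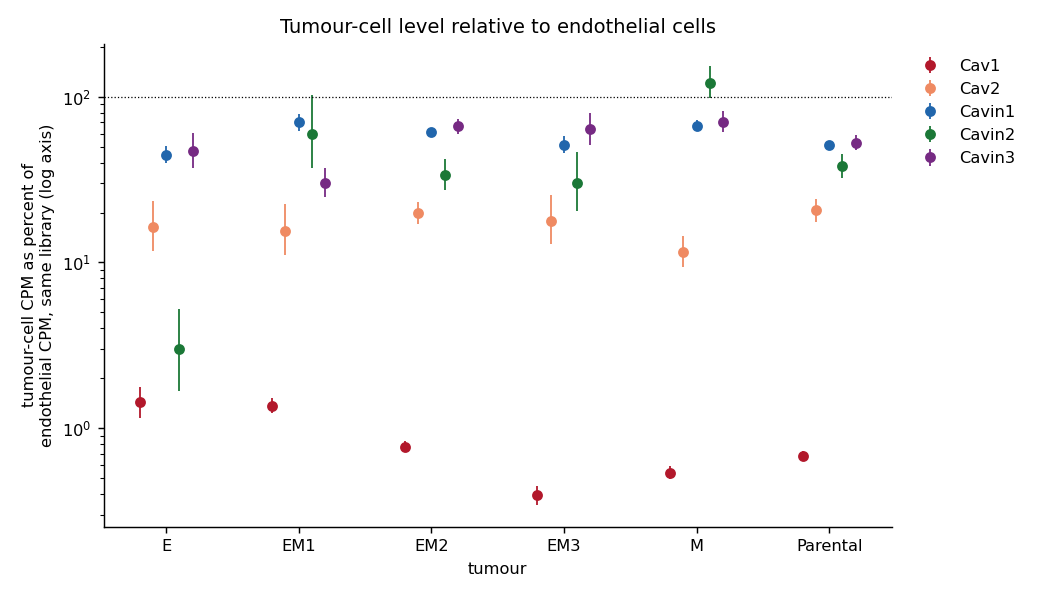
Tumour-cell level of each gene as a percent of the endothelial level in the same Total library. The horizontal axis gives the tumours, the vertical axis percent on a log scale, and the dotted line 100%. Bars are 95% intervals for counting error. Cav1 lies at 0.394% to 1.43% and Cavin1 at 44.7% to 70.3% in every tumour, while Cavin2 runs from 3.01% in Clone E to 121.6% in M.

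Cavin2, a membrane-shaping cavin also known as serum deprivation response protein, was the gene of the 5 that varied most between tumours in tumour cells. It had 3.99 CPM (2.47 to 6.10) in Clone E, from 21 UMIs in 785 cells. The level was 187.6 CPM (184.4 to 190.9) in M, 50.7 in the parental tumour, 46.5 in EM1, 31.1 in EM3 and 29.5 in EM2. Clone E was thus below all others and M above all others, and only the intervals of EM2 and EM3 overlapped. Endothelial cells varied much less, at 132.5, 77.9, 87.5, 102.6, 154.3 and 133.3 CPM. The endothelial to tumour-cell ratio was 33.2 (19.1 to 59.4) in Clone E, 3.30 in EM3, 2.96 in EM2, 2.63 in the parental tumour, 1.68 (0.973 to 2.69) in EM1 and 0.822 (0.652 to 1.02) in M. In M the order depended on the scale: the log2 ratio of endothelial to tumour cells, with 10 CPM added to both, was −0.27 by total UMIs, 0.02 by median-of-ratios scaling and 0.37 as a mean over cells.

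At equal depth, a Cavin2 UMI was in 0.556% (0.152 to 1.42) of tumour cells of Clone E, in 5.39% to 8.94% of those of EM1, EM2, EM3 and the parental tumour, and in 27.6% (26.3 to 28.9) of those of M. T and NK cells had 0 of 1565 in Clone E and 0.709% to 2.62% in EM2, EM3, M and the parental tumour. In EM1 none of 185 T and NK cells had one. The count of 0 allows up to 0.235% of T and NK cells with a UMI in Clone E and 1.97% in EM1, by the Clopper-Pearson bound. Unthinned, 1.91% of tumour cells in Clone E and 72.7% in M had a Cavin2 UMI. At least 5 UMIs were in 18.6% of tumour cells of M, in 0.980% to 2.64% of those of EM1, EM2, EM3 and the parental tumour, and in none of Clone E. Fibroblasts had 2.80 to 19.95 CPM, and in M their 15.9 CPM stood beside 17.5 in T and NK cells and 5.06 in macrophages. The part of free RNA in the fibroblast values was not tested.

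**Figure D3:**
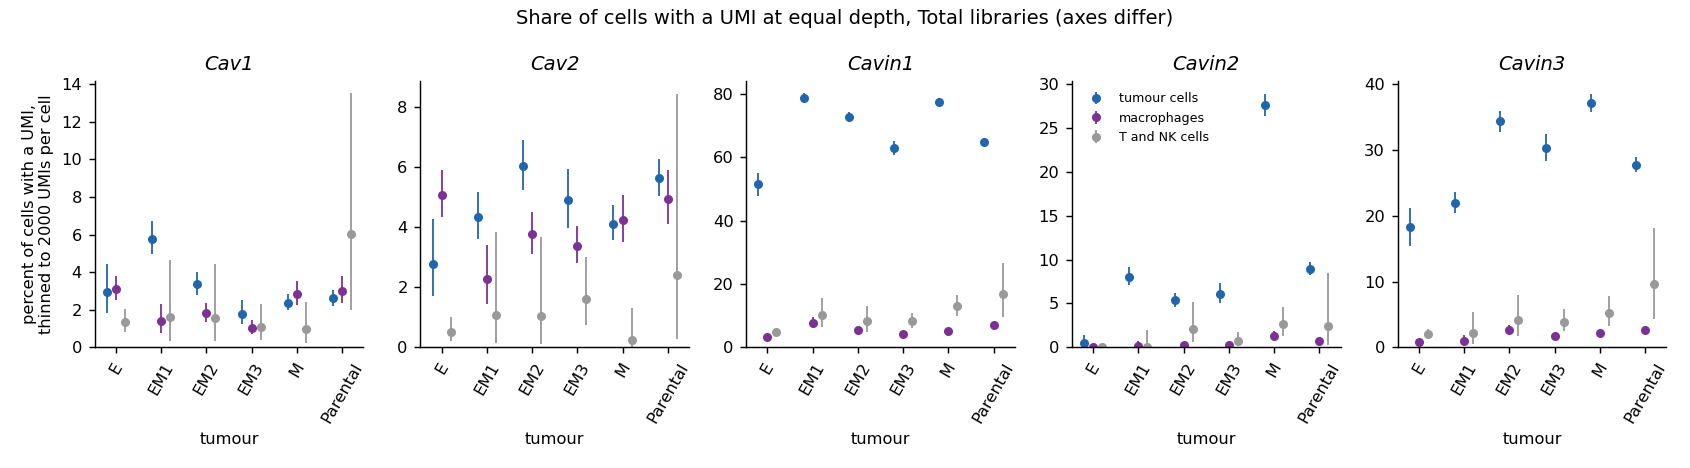
Percent of cells with a UMI of each gene after thinning every cell to 2000 UMIs, in tumour cells, macrophages and T and NK cells of the Total libraries. The horizontal axis gives the tumours, vertical axes differ between panels, and bars are 95% Clopper-Pearson intervals. Cavin1 and Cavin3 of tumour cells stand clear of both immune classes in all 6 tumours, and Cavin2 of tumour cells reaches 27.6% in M.

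Set against Clone E, the tumour cells of the other tumours were at least 2-fold higher, on the scale of log2(CPM + 10), in 6 of 25 gene and tumour pairs and at least 2-fold lower in none. Over all genes that reached 50 CPM in 1 of the 2 sums, 4.16% of pairs were higher and 6.64% lower. By tumour, the share of genes that were higher was 6.53% for M, 3.77% for EM1, 3.76% for EM3, 3.68% for EM2 and 2.95% for the parental tumour. Only 12 of the 25 pairs reached that level, so the count of members and the share over all genes are not over alike genes. Cavin2 made up 5 of the 6 pairs, and its pairs in EM1, EM2 and EM3 lay under 50 CPM. It was higher in all 5 tumours. Of genes at 50 CPM in each comparison, a set that leaves out Cavin2, 0.748% were. The CPM ratios of Cavin2 were 47.0 (30.7 to 76.0) in M, 12.7 (8.31 to 20.6) in the parental tumour, 11.7 (7.59 to 18.9) in EM1, 7.79 (5.07 to 12.6) in EM3 and 7.40 (4.82 to 12.0) in EM2. These comparisons share Clone E, whose 21 UMIs set most of the width of the intervals. Without the cells whose barcode also occurred in another tumour's library, an alternative added after the data were seen that leaves out 31.8% of Clone E's tumour cells, the log2 value of M was 3.87 against 3.82.

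The other genes moved less. Cavin3 was 2.20 (2.03 to 2.38) times the Clone E level in M, the remaining pair past 2-fold, and 1.15 to 1.92 times in the other tumours. Under median-of-ratios scaling that pair had a log2 value of 0.96 and was not counted. Cavin1 was 1.18 (1.13 to 1.23) times in EM3 to 1.94 (1.87 to 2.03) times in EM1, above Clone E in all 5. Cav1 was higher only in EM1, at 1.62 (1.32 to 2.01) times. Its ratio was 0.890 (0.726 to 1.10) in EM2 and 0.557 to 0.682 in EM3, M and the parental tumour. In Clone E, the reference, 1% of the tumour cells held 42.3% of the Cav1 UMIs, which the intervals do not take in. The part of those cells in the Cav1 ratios was not tested. Cav2 stayed between 0.826 and 1.36 times. Tumour cells of the parental line had 0.270 (0.261 to 0.280) times the Cavin2 of M.

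**Figure D4:**
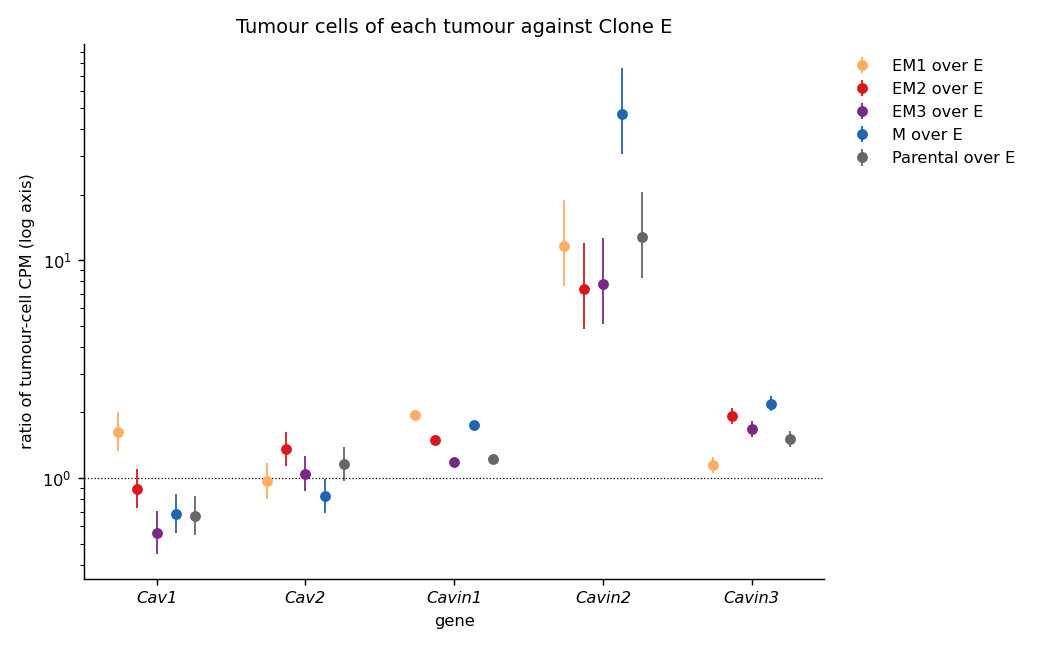
Ratio of tumour-cell CPM of each tumour to that of Clone E, on a log axis, for the 5 genes on the horizontal axis. Points are ratios, bars 95% intervals for counting error and the dotted line marks equal levels. Cavin2 lies 7.40 to 47.0 times above Clone E, while every other gene lies between 0.557 and 2.20 times.

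Summed leukocyte markers and summed endothelial markers in the tumour class were highest in Clone E. Its summed leukocyte markers were 435.1 CPM against a median of 125.9 over the tumours, and its endothelial markers 196.8 CPM against 138.2. Tumour cells without any UMI of Ptprc, Pecam1 or Cdh5 gave the same 6 pairs in number, and none of the 85 ratios moved beyond its counting interval. Cells that lack these UMIs are not shown to lack leukocyte or endothelial RNA, because the markers are low in the tumour class. Epithelial markers summed to 12516 CPM in tumour cells of Clone E, where Cavin2 was lowest, and to 2124 CPM in EM3, the lowest sum. The part of these markers' cells in the Cavin2 levels was not tested.

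Within a tumour, cells with and without a UMI of Epcam, the epithelial adhesion gene, could be compared at 2000 UMIs per cell, a split chosen after the data were seen. In M, Cavin2 was 135.8 CPM (110.9 to 164.5) in 383 cells with Epcam and 196.3 (187.1 to 205.8) in 4354 without it. Pecam1, a marker of endothelial cells and some leukocytes, moved with it, at 5.22 CPM (1.42 to 13.4) with Epcam and 20.8 (17.9 to 24.0) without. Over all tumour cells of M, the endothelial list summed to 97.6 CPM, the lowest of the tumours, and its gene Cdh5 had 0.478 CPM. Endothelial Cavin2 scaled to that Cdh5 level was 0.0475 CPM, beside measured Cavin2 of 187.6 CPM. The part of endothelial or leukocyte RNA in the Cavin2 difference was not tested. In EM1, Cavin2 was 32.8 CPM (23.0 to 45.5) in cells with Epcam and 51.8 (45.4 to 58.9) in those without it. EM2 and the parental tumour had a difference of the same sign, and Clone E and EM3, where 1 side held 99 and 20 cells, one of the opposite sign. The intervals of both sides overlapped in all tumours but M. In EM2, Cav1 was the higher in cells with Epcam, with 37.9 CPM (27.8 to 50.4) against 15.6 (12.4 to 19.3) in those without it. The same held in the parental tumour, with 20.5 (16.04 to 25.82) against 11.5 (9.26 to 14.1). In Clone E, EM1, EM3 and M, the Cav1 values of both sets had overlapping intervals. Cells that lack an Epcam UMI at this depth are not shown to lack the gene.

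Cavin2 was found more often beside Cavin1 in M. At equal depth, 28.6% (27.2 to 30.1) of M tumour cells with a Cavin1 UMI also had a Cavin2 UMI, against 24.0% (21.5 to 26.7) of those without. For EM1 the shares were 8.66% (7.52 to 9.92) and 5.74% (4.01 to 7.93), for EM2 5.83% and 4.22%, for EM3 7.03% and 4.58%, and for the parental tumour 9.17% and 8.52%, all with overlapping intervals. Clone E had the opposite order, with 0 of 370 cells with Cavin1, which allows up to 0.992%, and 4 of 349 without it. Cav2 was found in 2.97% to 6.33% of tumour cells with Cavin1 and in 2.58% to 5.22% of those without it. For Cav1 the shares were 2.04% to 6.11% and 1.39% to 4.56%. For Cavin3 they were 19.2% to 37.8% and 17.2% to 35.1%, higher beside Cavin1 in every tumour but with overlapping intervals. Of endothelial cells with a Cavin1 UMI, 80.5% to 96.2% also had one of Cav1. In each tumour fewer than 20 endothelial cells lacked a Cavin1 UMI, so no share is set beside it.

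Endothelial cells were at least 2-fold higher than tumour cells in 19 of 30 gene and tumour pairs, where 14.4% of pairs over all genes at 50 CPM were. Cav1 and Cav2 were higher in all 6 tumours, as were 8.77% of genes. Cavin2 passed in 4 tumours, Cavin3 in 2 and Cavin1 in 1, and all 5 genes passed only in Clone E. The median log2 ratio of all genes was −0.27 to −0.13 across the tumours, so that a value of 0 is itself slightly above the typical gene. No pair was 2-fold lower, against 15.1% over all genes. Median-of-ratios scaling raised the share of higher calls among all calls from 48.8% to 62.4%, and 22 of the 30 pairs were then counted, where 17.8% of pairs over all genes were.

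Fibroblasts were at least 2-fold higher than tumour cells in 6 of 30 pairs, against 11.6% of pairs over all genes. All 6 were Cav1, which was thus higher in every tumour, as were 7.28% of genes. Of the 30 pairs, 12 were at least 2-fold lower, where 25.8% were over all genes. Only 20 of the 30 pairs reached 50 CPM in 1 of both sums, as every pair behind that share did, so the counts are not over alike genes. The 12 lower pairs comprised Cavin2 in every tumour but Clone E, Cavin1 and Cavin3 in 3 tumours each, and Cav2 in EM2, of which Cavin2 in EM1, EM2 and EM3 and Cav2 in EM2 lay under 50 CPM. The median log2 ratio of all genes was −0.75 to −0.39, so that a gene at 0 lay above the typical gene. With median-of-ratios scaling 3 of the 30 pairs were 2-fold lower, all Cavin2 (EM1, EM3 and M), a share near the 7.50% of pairs over all genes. The share of higher calls among all calls went from 31.0% to 71.7%. That scaling also turned the sign of Cavin1 in Clone E, from −0.31 to 0.10, and of Cav2 in EM1, from −0.06 to 0.46. In EM1 and EM3 the fibroblast value of Cavin2 rests on 3 and 2 UMIs, with ratios of 0.189 (0.0390 to 0.554) and 0.0901 (0.0109 to 0.327).

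Markers of other cells were present in both stromal classes. The pericyte and smooth muscle list summed to 841.3 to 2649 CPM in fibroblasts and to 47.3 to 549.7 in endothelial cells. Its gene Rgs5, a pericyte marker, split the fibroblast class where both sides held at least 20 cells. In EM2, Cav1 was 469.7 CPM (319.1 to 666.7) in 33 cells with Rgs5 and 147.9 (109.8 to 195.0) in 169 without it. Cavin1 was 484.8 (331.6 to 684.5) against 248.5 (198.2 to 307.7). The Col1a1 level of the 33 cells, at 15061 CPM, was below that of the others, at 71278. In M the intervals for Cav1, 303.3 (213.5 to 418.0) and 188.8 (147.5 to 238.2), overlapped, as did those in the parental tumour and those of Cavin1 in both. Leukocyte markers summed to 2226 CPM in Clone E fibroblasts against a median of 569.5. The adipocyte list summed to at most 10.2 CPM in endothelial cells, where its genes Plin1, Cidec and Lep were at 0 in all 6 tumours. In fibroblasts it summed to a median of 53.6 CPM and at most 65.9. The part of pericytes, leukocytes and adipocytes in the stromal levels was not tested beyond these values.

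Genes whose proteins work with caveolae were read in the same sums. The list of 13 such genes was chosen with earlier results of these data known. In endothelial cells, Ehd2, the ATPase at the caveolar neck, and its relatives Ehd3 and Ehd4 were at least 2-fold higher than in tumour cells in all 6 tumours, as were 8.77% of genes at 50 CPM. Ehd2 had 455.4 to 572.8 CPM there and 126.5 to 245.5 CPM in tumour cells. Ehd3 had 82.5 to 264.4 CPM against 0.194 to 1.71 CPM. Pacsin3, a membrane-bending F-BAR protein, was lower in all 6, at 0 to 17.5 CPM against 41.7 to 58.4. Of genes at 50 CPM in each comparison, a set that leaves out Pacsin3, 5.33% were. Cavin4 was lower in Clone E and EM1, and Flot1 in EM1 and EM3, where 16.1% to 18.1% of genes at 50 CPM were. Cavin4 lay under 50 CPM in Clone E. Dnm2, Ehd1 and Pacsin2 were past 2-fold in no tumour. Cav3 and Cavin4, the muscle forms, had at most 3.40 and 1.93 CPM in endothelial cells.

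Against Clone E, none of the 13 partners was 2-fold higher in tumour cells of any tumour, where 2.95% to 6.53% of all genes were, so a count of 0 is near the background. Cavin4 was 2-fold lower in EM2, EM3, M and the parental tumour, from 23.4 CPM in Clone E to 0.936 to 3.92 CPM. Of genes at 50 CPM, a level Cavin4 did not reach there, 6.27% to 8.12% were lower, so 1 of 13 is near the background. The skeletal muscle list was also highest in tumour cells of Clone E, with a sum of 31.9 CPM against a median of 10.3, as was the pericyte and smooth muscle list, with 37.4 against 6.12. The part of muscle cells in the Cavin4 level was not tested. Ehd2 was 1.29 (1.19 to 1.39) times the Clone E level in the parental tumour and 1.73 to 1.94 times in the 4 clones. Fibroblasts had lower Ehd4 and Pacsin3 than tumour cells in all 6 tumours. Of genes at 50 CPM in each comparison, a set that leaves out Pacsin3, 6.48% had this pattern. Flot2 was lower in EM1, EM2 and M, where 30.7% to 37.1% of genes at 50 CPM were. Ror1, a receptor tyrosine kinase-like protein, was higher in EM1, EM2, EM3 and M, and Ehd3 in EM1, EM2 and EM3. Both had no more than 29.3 CPM in fibroblasts. In these tumours 11.1% to 12.3% of genes at 50 CPM were higher.

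A second list held 7 genes whose proteins sit in or bind endothelial caveolae, of which Nos3 was not analysed here. The list was picked for endothelial proteins, and Plvap and Kdr are also among the endothelial markers, so its endothelial levels are a description. Plvap, which builds the diaphragms across caveolae, Gpihbp1, which carries lipoprotein lipase, Cd36, Kdr and Aqp1 were higher in endothelial than in tumour cells in all 6 tumours, beside the same 8.77% of genes. Insr, the insulin receptor, was higher in EM1 and the parental tumour, where 15.4% and 12.3% of genes at 50 CPM were. Plvap had 683.0 to 1304 CPM in endothelial cells and 0.784 to 4.50 in tumour cells. Aqp1, a water channel, was also in tumour cells, with 135.8 CPM in EM1, 116.3 in EM2 and 62.4 in EM3. Each was past 2-fold over the 22.6 CPM of Clone E, as were 3.68% to 3.77% of genes at 50 CPM. Cd36 was 2-fold lower than Clone E, at 14.4 CPM, in EM1, EM2, M and the parental tumour, which had 1.06 to 2.05 CPM. Of genes at 50 CPM, a level Cd36 did not reach there, 5.25% to 8.12% were lower. Summed leukocyte markers and summed endothelial markers were highest in the tumour class of Clone E, and the part of such RNA in the Cd36 level was not tested.

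The macrophage class was not used in the choice of genes. In the CD45 libraries, whose annotation has no tumour class, their Cav1 reached 24.7 CPM (23.1 to 26.4) for Clone E, 16.8 (15.2 to 18.6) for the parental line and 16.2 (14.5 to 18.1) for M. It was 7.79 CPM (6.97 to 8.69) in EM3, 5.55 (4.66 to 6.56) in EM2 and 4.40 (3.50 to 5.46) in EM1. The macrophages of the Total libraries of the same tumours had 23.7, 7.90, 9.20, 5.68, 15.1 and 15.7 CPM. Clone E was highest and EM1, EM2 and EM3 lowest in both kinds of library, with M and the parental tumour between them. The Total value was the higher in EM1 and EM2 and the lower in EM3, with separate intervals, and the intervals of the other 3 tumours overlapped. T cells of the CD45 libraries had 0 to 2.78 CPM of Cav1. In these libraries the interval of macrophages lay above that of T cells in all 6 tumours. In the Total libraries it lay above that of T and NK cells in Clone E alone and below it in EM2. There the intervals of both classes overlapped in the other 4 tumours, with macrophages the higher in EM1 and M and the lower in EM3 and the parental tumour.

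Cav2 of macrophages varied less. In the CD45 libraries it was 9.76 CPM (8.39 to 11.3) in EM1 and 19.6 to 22.2 CPM in the other 5 tumours. In the Total libraries it was 11.4 CPM (8.96 to 14.3) in EM1 and up to 22.6 CPM in the parental tumour, so that EM1 was lowest in both. Other myeloid cells of the CD45 libraries had 14.3 to 46.5 CPM of Cav2. Cavins were low in macrophages of the CD45 libraries, with 1.34 to 3.68 CPM of Cavin1, 0 to 0.302 of Cavin2 and 0.142 to 0.603 of Cavin3. In the Total libraries macrophages had 17.4 to 36.0 CPM of Cavin1, and T and NK cells 30.1 to 151.9, while T cells of the CD45 libraries had 0.516 to 3.70.

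**Figure D5:**
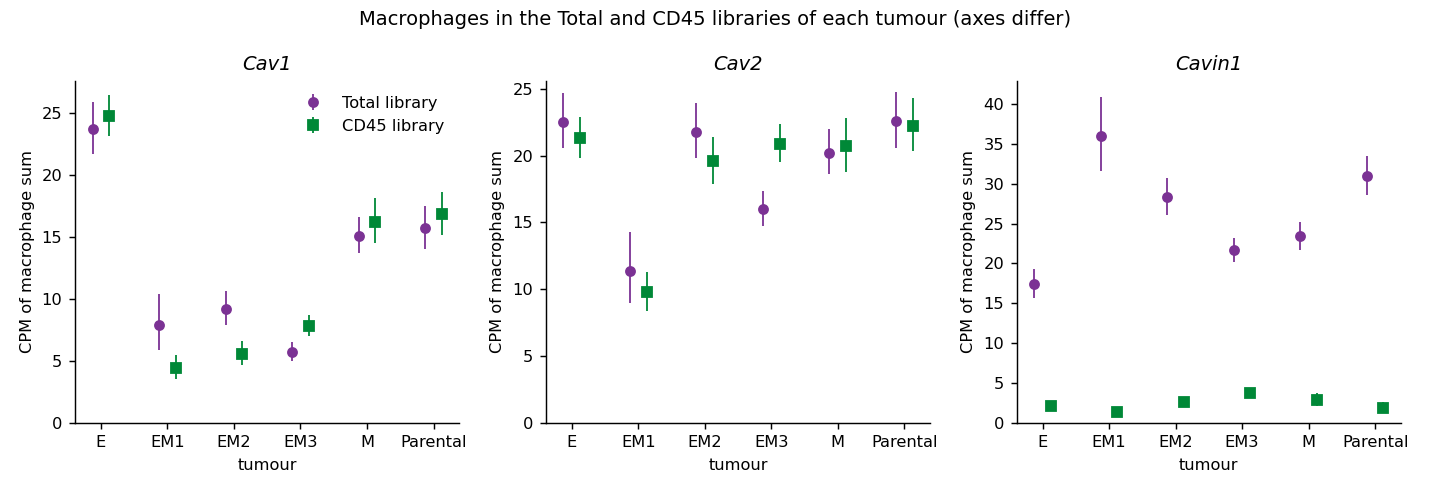
Cav1, Cav2 and Cavin1 of macrophages in the Total and CD45 libraries of each tumour. The horizontal axis gives the tumours and the vertical axis CPM, and bars are 95% Poisson intervals. Cav1 is highest in Clone E and lowest in EM1, EM2 and EM3 in both kinds of library, whereas Cavin1 is 17.4 to 36.0 CPM in the Total and 1.34 to 3.68 CPM in the CD45 libraries.

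Genes with the most similar pattern were sought over the 18 sums of tumour, endothelial and fibroblast cells, among 7311 genes with 50 CPM in at least 1 sum. The sums share libraries and classes, so these correlations describe the class pattern. Closest to Cav1 were Cdh13, which encodes T-cadherin (r = 0.990), Ptprm, Arhgap31, Dennd5b and Cd34. Closest to Cav2 were Adgrg1 (0.978), Gimap9, Plxnd1, Scarb1, the high-density lipoprotein receptor, and Dll4, a Notch ligand. Cavin1 was matched best by Tpd52l2 (0.965), Plcg1, Sema3f, Lhx6 and Mapk3, and Cavin3 by Wwtr1, which encodes the transcription co-activator TAZ (0.956), Snn, Tanc1, Lhx6 and Dpysl2. Lhx6 was the 1 gene on the lists of 2 members. Cavin2 had the loosest best match, Trp53i11 (0.921), followed by Paip2, Adipor1, Ube2v1 and Ndufa8.

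Over the 6 tumour-cell sums alone, with 5831 genes to choose from, high correlations are easily reached and are given as names only. The closest genes were Fhl2 for Cav1, Herpud1 for Cav2, Mgp, which encodes matrix Gla protein, for Cavin1, Mtdh for Cavin2 and Rhog for Cavin3. Mgp ranged from 185.6 CPM to 2291 CPM over these sums.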

How the data were processed

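Single-cell UMI counts of 12 libraries from 6 tumours were used. The authors deposited raw counts per gene and cell with a cell annotation; Cell Ranger and the build mm10 are named per the submitters' processing notes. The deposited cells start at 200 to 650 genes per cell, by library. Per the labels' protocols cells were fixed with a fixed-RNA kit, while 3′ reagents are also named, so the chemistry is not settled. Doublets were called with an implementation of the Scrublet method (2 simulated pairs per cell, 2000 variable genes, 30 components, expected share 6%). The single limit, 0.3203, was the median of 12 score valleys that differed widely, a rule chosen after they were seen. It called 1642 of 115612 cells (1.42%), which were left out. Counts were summed per class and library, scaled to CPM, and given exact Poisson intervals (ratios: exact conditional binomial) at 95%. A 2-fold call means a difference of at least 1 in log2(CPM + 10), read against all genes with 50 CPM in 1 of both sums. The calls were tried on simulated Poisson counts, with genes at 50 CPM or more altered by folds well past 2. That does not cover lower genes, folds near 2 or spread between tumours. Python 3.11.15, numpy 2.4.6, scipy 1.17.1, pandas 2.3.3 and scikit-learn 1.9.0 were used. Promoters came from RefSeq on GRCm38.p6, the mm10 assembly. Named genes are the 5 members, 2 lists of caveola genes, marker genes, and the 5 genes most correlated with each member. The members and lists were chosen with earlier results of these data known. Alternatives were the doublets, a minimum of 650 genes per cell, per-cell means, median-of-ratios scaling, a pseudocount of 1, marker-free tumour cells, a fold of 1.5, thinning to 1000 UMIs, a minimum of 20 CPM and leaving out each tumour. Leaving out barcodes shared between tumours was added after the data were seen.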

Additional observations from a re-analysis of the deposited data

How the results depend on the processing

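The count of pairs 2-fold from Clone E in tumour cells, 6, became 10 with a fold of 1.5 and was 5 to 7 under the other alternatives. With 1 tumour left out the counts were 4 to 5 against Clone E, 14 to 17 for endothelial cells (19 with all) and 5 for fibroblasts (6 with all). Clone E, the reference, could not be left out of its own comparison. Of 85 log2 ratios, none changed sign from a 2-fold value. Median-of-ratios scaling moved 33 beyond their counting interval, a pseudocount of 1 moved 22, per-cell means 13 and leaving out shared barcodes 8. Keeping doublets, 650 genes per cell and marker-free tumour cells moved none. The largest shift, 1.42, was that of Cavin2 in M over Clone E with a pseudocount of 1; the added 10 CPM shrinks ratios of low genes. Leaving out shared barcodes turned Cavin1 of Clone E fibroblasts over tumour cells from −0.31 to 0.18 and Cav2 of EM1 fibroblasts from −0.06 to 0.26. Thinning to 1000 UMIs in place of 2000 lowered the shares of tumour cells with a UMI, since fewer UMIs are read per cell. Depth limits the values with few UMIs: Cavin2 rests on 2 to 77 UMIs per tumour in fibroblasts and on 21 in tumour cells of Clone E. Tumours could not be tested against each other, with 1 per group; contrasts of classes, which are paired within the 6 tumours, were left untested.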
